A study of Homo sapiens with 3 samples.

Results

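The enzymes described here make, interconvert and inactivate androgens. The set held 10 genes named by their function in androgen metabolism and chosen with earlier results of these data known. They were UGT2B11, UGT2B15, UGT2B17, UGT2B28, SRD5A1, SRD5A3, HSD17B4, HSD17B11, AKR1C3 and STS. Every probe set annotated to any of them was taken. On the array, 18131 genes had a probe set of their own. Of the 10, 9 had a probe set here and 7 were measured, meaning that the probe set that stood for the gene was above a floor of 26, the median of all intensities, on at least 1 array. SRD5A3 had no probe set in the annotation used and was not analysed here.

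The cells were LNCaP, an established human prostate cancer line that depends on androgen signalling, transfected with 75 nM siRNA. The 3 groups were HOXD-AS1 siRNA 1, HOXD-AS1 siRNA 2 and a negative control siRNA, and each held 1 Affymetrix array read 48 h after transfection. The study looked for genes that depend on the long non-coding RNA HOXD-AS1. For HOXD-AS1 the labels list, under inhibition rate, 0.23 for siRNA 1 and 0.25 for siRNA 2 relative to 1 for the control, without saying how it was measured or whether the figure is the inhibition or the level that remained. The same labels place the siRNA target points, 588 for siRNA 1 and 1290 for siRNA 2, on the coding sequence of WDR5 although they name HOXD-AS1 as the target, so the siRNAs are called here by the names the labels give them. All groups shared the serum-containing medium free of phenol red, and the labels name no added androgen. The source labels called the cells LNCaP-Bic for siRNA 1, LNCaP-AI for siRNA 2 and LNCaP for the control, although the cell line label was LNCaP throughout. A difference between cells so named and a difference between siRNAs cannot be told apart.

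Androgens reach prostate cells as testosterone from the blood and as weaker adrenal precursors, among them a sulfate that steroid sulfatase, the product of STS, can cleave. AKR1C3 reduces androstenedione to testosterone, and the steroid reductases, of which SRD5A1 is one, convert testosterone or its precursors to the more potent dihydrotestosterone. Signalling ends when the steroids are oxidised or reduced to weaker forms and joined to glucuronic acid by the UGT2B enzymes of the endoplasmic reticulum, after which they leave the cell. UGT2B15 and UGT2B17 are the best known glucuronidating enzymes of prostate cells, and in LNCaP cells androgen is known to lower both transcripts.

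The UGT2B genes lie together on chromosome 4 and resemble each other closely, which shapes what the array can tell apart. UGT2B17 and UGT2B15 are next to each other among the protein-coding UGT2 genes of the RefSeq annotation, while UGT2B11 and UGT2B28 are neighbours farther along the cluster. All 3 probe sets annotated to UGT2B15 alone ended in _s_at or _x_at, endings that mark probe sets with probes that also match other transcripts. The 2 probe sets annotated to UGT2B15 and UGT2B17 together were designed on a RefSeq accession of UGT2B17. A share of each signal could therefore come from the other gene. The likeness extends to the promoters. The RefSeq promoters of UGT2B15 (GRCh38.p14, chr4:68670603-68670902, minus strand) and UGT2B11 (GRCh38.p14, chr4:69214699-69214998, minus strand) run from 250 bases before to 50 bases after the start. They are shown because they are the UGT2B members with an entry in the promoter table, which held 13 entries for 8 of the 10 genes, and they matched at 79.7% of aligned positions (224 identical bases and 57 mismatches, with gaps left out). Capitals mark matches on either strand to the AGAACA core of the androgen response element, the forkhead motif TGTTTAC and the GTTAAT core of the HNF1 site.
UGT2B15: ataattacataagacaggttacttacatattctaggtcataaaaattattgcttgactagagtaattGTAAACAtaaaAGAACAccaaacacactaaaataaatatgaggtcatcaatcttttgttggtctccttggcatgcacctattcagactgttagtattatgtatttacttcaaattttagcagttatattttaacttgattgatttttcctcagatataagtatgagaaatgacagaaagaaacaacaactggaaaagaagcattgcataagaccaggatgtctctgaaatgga
UGT2B11: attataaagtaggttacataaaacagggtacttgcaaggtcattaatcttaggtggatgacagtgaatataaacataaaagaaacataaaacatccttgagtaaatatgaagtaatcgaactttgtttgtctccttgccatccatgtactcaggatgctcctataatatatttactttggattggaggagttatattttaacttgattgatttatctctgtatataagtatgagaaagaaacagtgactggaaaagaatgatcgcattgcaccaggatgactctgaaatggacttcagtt
The UGT2B15 promoter held 1 forkhead match, on the minus strand with its first base 183 bases before the start, and 1 AGAACA match at 172 bases before the start, and these did not overlap. Of 35116 RefSeq promoters of the same length, 3.42% held TGTTTAC, 14.8% held AGAACA and 6.88% held GTTAAT. A match describes letters only, and UGT2B11 had none of the 3 in this window.

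UGT2B15 and UGT2B17 signal was higher with both HOXD-AS1 siRNAs than with the control siRNA in all 5 of their probe sets. The probe set that stood for UGT2B15, the one with the highest mean log2 intensity, read 2505 with siRNA 1 and 1962 with siRNA 2, against 1226 in the control, or 2.04-fold and 1.60-fold higher. A further UGT2B15 probe set read 2311 and 1832 against 1192 in the control, and the last read 2104 and 2089 against 1271. The control was the lowest array in each of the 3. Log2 differences lay between 0.73 and 1.03 for siRNA 1 and between 0.62 and 0.72 for siRNA 2.

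The probe sets shared by UGT2B15 and UGT2B17 also had their lowest reading in the control. The shared probe set of plain design read 331 with siRNA 1 and 383 with siRNA 2, against 156 in the control, which is 2.11-fold and 2.45-fold higher. The other read 323 and 372 against 196 in the control, 1.65-fold and 1.90-fold higher, and stood for UGT2B17 because its mean was the higher of the pair. UGT2B17 had no probe set of its own, so a change in its transcript could not be separated from one in UGT2B15. The order of the siRNAs differed between the groups of probe sets. The shared probe sets were higher with siRNA 2 than with siRNA 1 by a log2 difference of 0.20 to 0.21, while the UGT2B15 probe sets differed by -0.35, -0.34 and -0.01 in the same contrast. For scale, probe sets of one gene had a pooled SD of 0.221 in this contrast over 6262 genes with more than 1 measured probe set.

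UGT2B28, whose enzyme also joins androgens to glucuronic acid, read 61.2 with siRNA 1 and 46.9 with siRNA 2, against 43.9 in the control. Its only probe set also ended in _s_at, so a share of this signal could come from other transcripts. The siRNA 1 array was the highest (log2 difference 0.48), and siRNA 2 lay near the control (0.10). UGT2B11, a family member with less clear steroid activity, was below the floor on every array in its own probe set, at 11.9, 8.97 and 7.47 (siRNA 1, siRNA 2 and control). The probe set shared by UGT2B10 and UGT2B11 read 171 with siRNA 1 and 245.7 with siRNA 2, against 194 in the control, so that siRNA 1 was the lower and siRNA 2 the higher than the control (-0.18 and 0.34). The probe set of UGT2B10 alone read 39.6 and 46.4 against 33.7 in the control (0.23 and 0.46). The other UGT2 genes of the cluster with probe sets of their own, UGT2A3, UGT2B7 and UGT2B4, were below the floor.

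**Figure D1:**
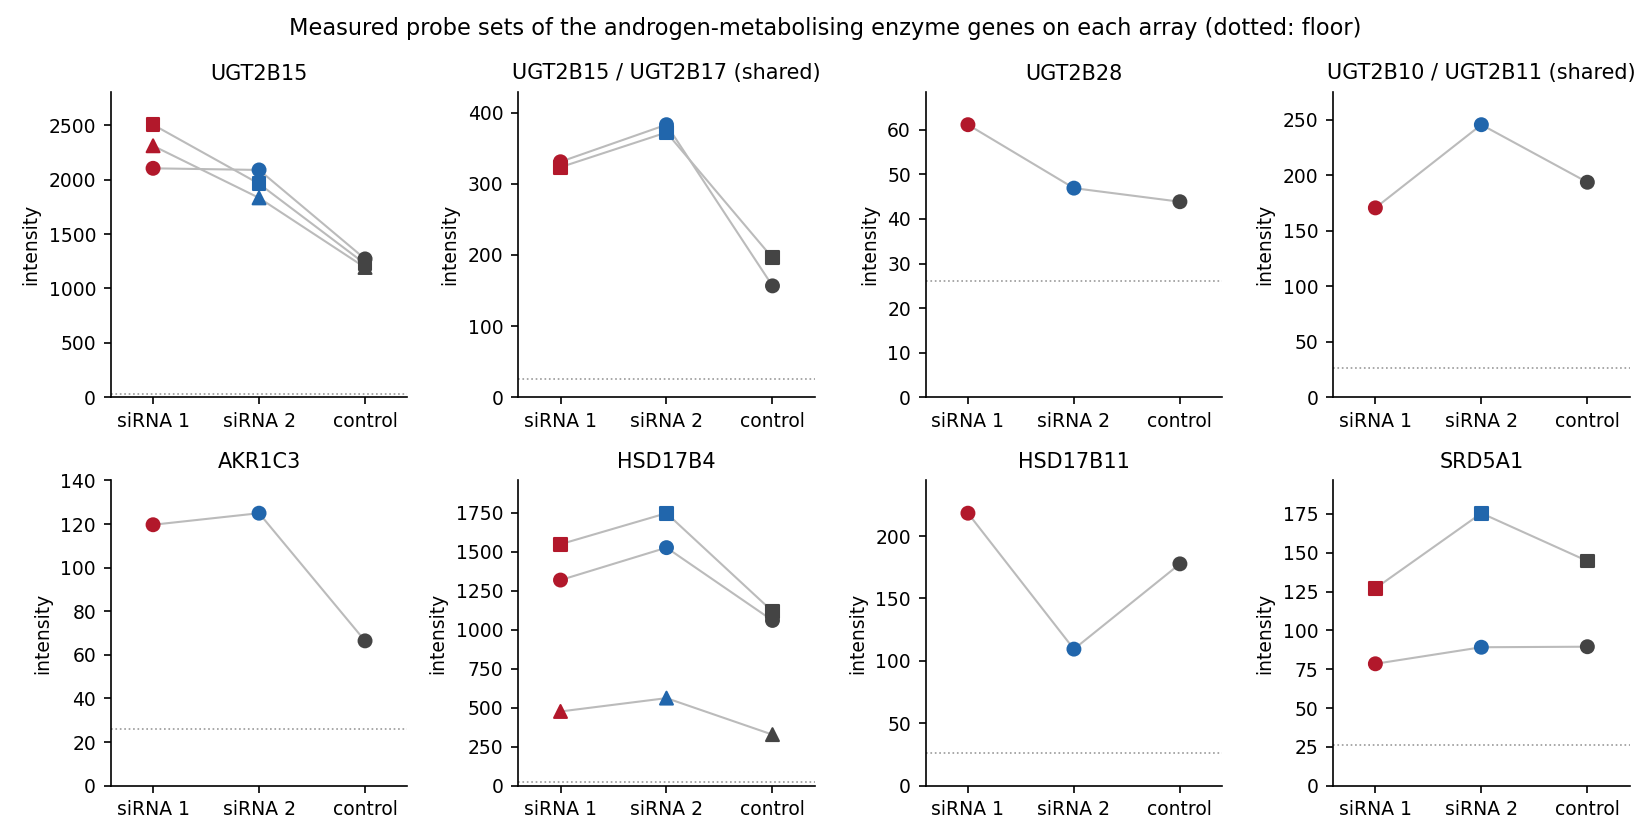
Intensity (linear scale, from 0) of each measured probe set on the siRNA 1, siRNA 2 and control arrays, 1 panel per gene or shared pair, with 1 marker shape per probe set, lines joining its 3 readings and a dotted line at the floor of 26. The control is the lowest reading of every UGT2B15, UGT2B15 and UGT2B17 shared, AKR1C3 and HSD17B4 probe set, while HSD17B11 is lowest with siRNA 2.

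AKR1C3, which forms testosterone, was higher with both siRNAs. Its measured probe set read 119.7 with siRNA 1 and 125 with siRNA 2, against 66.4 in the control, 1.80-fold and 1.88-fold higher. Both siRNA arrays lay above the control and close to each other (log2 difference 0.06 between them). The other AKR1C3 probe set was below the floor on all arrays, at 4.70, 6.03 and 4.75 with siRNA 1, siRNA 2 and the control, so the difference rests on 1 probe set. AKR1C2, a gene of the same family whose enzyme inactivates dihydrotestosterone, read 35.1 with siRNA 1 and 72.9 with siRNA 2, against 45.2 in the control. Its differences from the control of -0.37 and 0.69 went opposite ways, unlike those of AKR1C3. How far the AKR1C genes share signal on this array was not tested.

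SRD5A1, the steroid reductase gene, was measured in 2 of its 4 probe sets. The one that stood for the gene read 127 with siRNA 1 and 175.5 with siRNA 2, against 145 in the control (-0.19 and 0.28). The other read 78.5 and 89.2 against 89.5 in the control (-0.19 and -0.01). siRNA 1 gave the lowest reading in both, and the siRNA 2 reading was above the control in only one of them. STS, the sulfatase gene, was below the floor in all 4 of its probe sets, with its brightest at 21.1 with siRNA 1, 13.0 with siRNA 2 and 21.3 in the control. No difference was computed for it. An expression below this floor could not be ranked between arrays.

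HSD17B4 encodes a peroxisomal enzyme of fatty acid beta-oxidation that can also oxidise steroids, and it was higher with both siRNAs in all 3 of its probe sets. The one that stood for the gene ended in _x_at, so a share of its signal could come from other transcripts. It read 1549 with siRNA 1 and 1748 with siRNA 2, against 1118 in the control, 1.39-fold and 1.56-fold higher. The others read 1319 and 1527 against 1060 in the control, and 476 and 562 against 327 in the control. The siRNA 1 array lay above the control by log2 differences between 0.31 and 0.54, the siRNA 2 array by 0.53 to 0.78, and siRNA 2 was the higher of the siRNA arrays each time. HSD17B11, a dehydrogenase of lipid droplets and the endoplasmic reticulum that acts on steroids, had another order of arrays. Its measured probe set read 218 with siRNA 1 and 109 with siRNA 2, against 178 in the control, log2 differences of 0.30 and -0.70. This probe set ended in _s_at, so other transcripts could contribute to its signal. The siRNA arrays differed from each other by -1.00, a ratio of 0.501 that fell just short of the 2-fold threshold. Its other probe set was below the floor on every array.

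In all, the genes had 23 probe sets, of which 14 were measured, and each of the 14 was above the floor on every array. Of these, 10 were higher with both siRNAs and 1 was lower with both. The same shares over all measured probe sets were not computed. Over all measured genes, a different unit, they were 34.3% and 32.1%. The probe set counts are therefore descriptive only. The 10 include the 5 UGT2B15 and shared UGT2B15 and UGT2B17 probe sets and the 3 of HSD17B4, so they are not 10 separate genes. With 1 array per group no test was possible, so members were counted at a 2-fold difference from the control beside the same count over all measured features. At 2-fold, 2 of the 14 probe sets were higher with siRNA 1, 1 with siRNA 2 and 1 with both, where 1.14%, 0.679% and 0.239% of all 25904 measured probe sets were. Of the 7 measured genes, 1 was 2-fold higher with siRNA 1 (UGT2B15), where 1.36% of 11286 measured genes were. That call rests on 1 of the 3 UGT2B15 probe sets, and with the mean of the measured probe sets, 0.90, the count was 0. None of the 7 was 2-fold higher with siRNA 2 (0.789% of all measured genes), 2-fold lower with siRNA 1 (1.76%) or siRNA 2 (0.603%), or 2-fold apart between the siRNAs (2.22%). At 1.5-fold, 3 of 7 were higher with siRNA 1 (6.90% of all measured genes), 4 with siRNA 2 (4.75%) and 3 with both (1.83%). The 3 were UGT2B15, UGT2B17 and AKR1C3, with UGT2B17 read from a probe set that it shares with UGT2B15, and HSD17B4 was the fourth with siRNA 2. The AKR1C3 differences were 0.00 and 0.05 when the floor was set at the 75th percentile of all intensities. HSD17B11 was the 1 gene at least 1.5-fold lower with siRNA 2 (4.67% of all measured genes), and 0 were with siRNA 1 (6.16%).

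By sign alone, 5 of the 7 genes were higher than the control with both siRNAs, against 34.3% of all measured genes, and 0 were lower with both, against 32.1%. The remaining SRD5A1 and HSD17B11 went opposite ways with the siRNAs. UGT2B28 is among the 5 at 0.10 with siRNA 2, inside the pooled SD of 0.200 between probe sets of one gene. The members were chosen with earlier results of these data known, so these counts are descriptive only. The median log2 difference of the 7 was 0.48 with siRNA 1 and 0.65 with siRNA 2, where all measured genes had medians of 0.00 and 0.01. With UGT2B15 and UGT2B17 set aside, a choice made with the values known, 3 of the 5 remaining genes were higher with both siRNAs, and the medians were 0.47 and 0.28. Both siRNA differences use the same control array, so a low or high reading there moves both the same way. In the pattern of its pair of differences over the 3 arrays UGT2B15 lay nearest to JARID2 (1.03 and 0.69), APOD (1.02 and 0.69) and G3BP2 (1.04 and 0.71), by Euclidean distances of 0.01, 0.018 and 0.03 among all measured genes. A total of 79 genes lay within a distance of 0.25 of it.

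**Figure D2:**
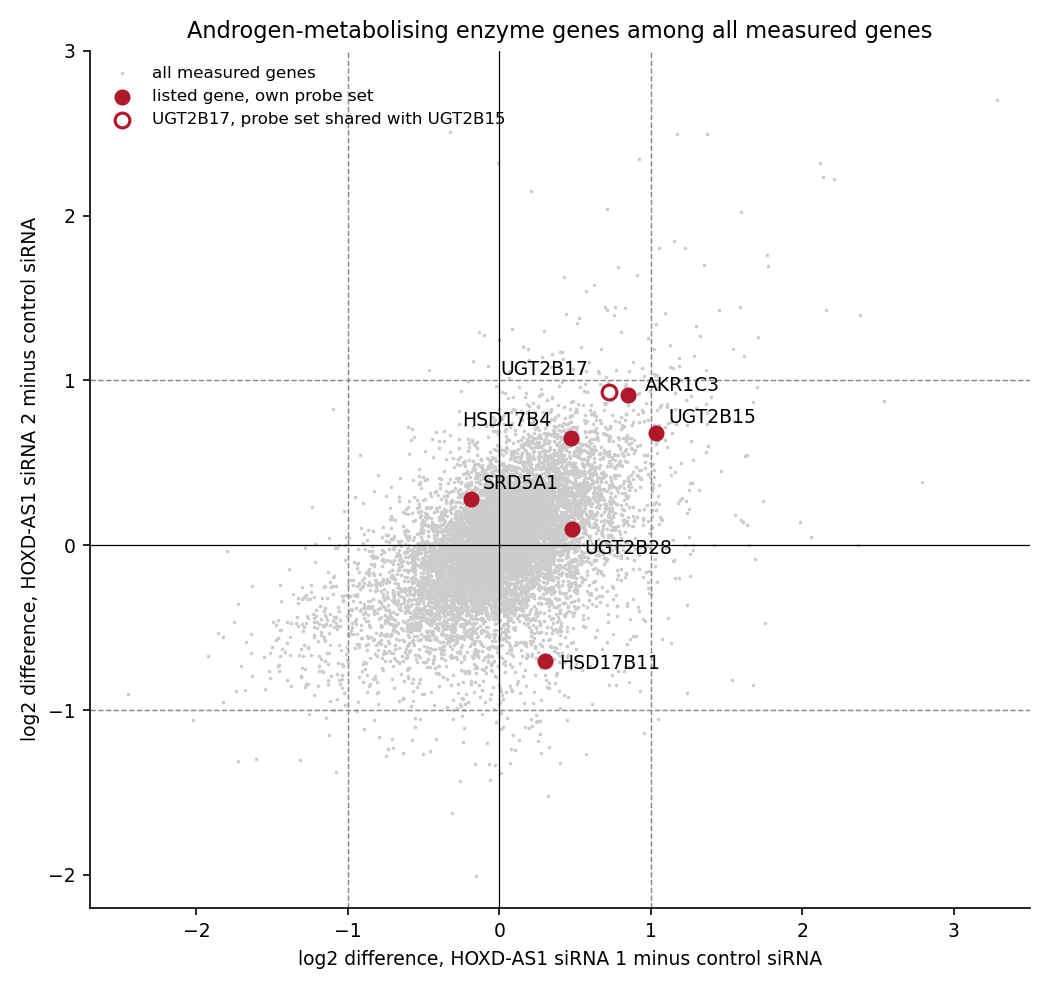
Log2 difference from the control siRNA with HOXD-AS1 siRNA 1 (horizontal) and siRNA 2 (vertical) for the 7 measured enzyme genes (red, open for the UGT2B17 probe set shared with UGT2B15) and all 11286 measured genes (grey), with dashed lines at 2-fold. UGT2B15, UGT2B17, AKR1C3, HSD17B4 and UGT2B28 lie in the quadrant higher with both siRNAs, and HSD17B11 lies at 0.30 and -0.70.

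The other genes of glucuronidation were read from lists of their own. Of 7 other UDP-glucuronosyltransferase genes with a probe set, 3 were measured, and none was 2-fold higher or lower with either siRNA. UGT8, which makes galactosylceramide for myelin, read 70.6 with siRNA 1 and 82.0 with siRNA 2, against 108 in the control (-0.62 and -0.40). Of the 6 measured genes for the supply of UDP-glucuronic acid or for its removal, 2 were higher with both siRNAs (34.3% of all measured genes). The medians of the 6 were 0.13 and 0.04. Among them GUSB, the lysosomal enzyme that cleaves glucuronides, differed by -0.33 and 0.07.

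Upstream in the pathway, 5 of 12 steroid synthesis genes with a probe set were measured, with medians of 0.18 and 0.21. CYB5A, the cytochrome that assists the androgen-forming lyase reaction, read 5410 with siRNA 1 and 5550 with siRNA 2, against 4783 in the control (0.18 and 0.21). Of 14 measured genes for other hydroxysteroid dehydrogenases and reductases, 3 were higher and 6 lower with both siRNAs (34.3% and 32.1% of all measured genes). HSD17B10, a mitochondrial enzyme of this group, differed by -0.51 and -0.21. The steroid sulfation list had 6 measured genes, 4 of them higher with both siRNAs (34.3% of all measured genes). SUMF2, a relative of the sulfatase-activating enzyme, differed by 0.29 and 0.44, although 3 of its dimmer probe sets were below the control with siRNA 1. The 3 measured steroid uptake genes had medians of -0.01 and 0.40. SLCO4A1, an organic anion transporter gene, differed by -0.38 and -0.40, SLC51A, a subunit gene of a steroid transporter, by 0.09 and 0.90, and SHBG, the sex hormone binding globulin gene, by -0.01 and 0.40. No gene of these lists was 2-fold from the control in the probe set that stood for it.

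The pathways in which HSD17B4, SRD5A3 and HSD17B11 act were read from their own lists. Among 15 measured genes of peroxisomal beta-oxidation, the partners of HSD17B4, 7 were higher and 6 lower with both siRNAs (34.3% and 32.1% of all measured genes). The medians of the 15 were 0.06 and 0.10. ACAA1, the peroxisomal thiolase gene, read 1303 with siRNA 1 and 1383 with siRNA 2, against 1206 in the control. HSD17B4, at 0.47 and 0.65, was thus above the median of its partners with each siRNA. The highest partner values were 0.74 with siRNA 1, above HSD17B4, and 0.45 with siRNA 2, below it. SRD5A3 encodes a reductase of polyprenol that makes dolichol, the lipid carrier on which N-glycans are built. The 19 measured genes of that pathway had medians of -0.32 with siRNA 1 and -0.15 with siRNA 2. All measured genes had medians of 0.00 and 0.01. Of the 19, 11 were lower with both siRNAs, set beside the 32.1% of all measured genes given above, and a 1.5-fold lower reading was found in 6 with siRNA 1 (6.16% of all measured genes) and in 1 with siRNA 2 (4.67%). ALG3, a mannosyltransferase gene, read 204 with siRNA 1 and 300.5 with siRNA 2, against 422 in the control, and was the 1 gene of the pathway lists at 2-fold from the control in the probe set that stood for it (-1.05 and -0.49). A second ALG3 probe set gave -0.97 and -0.58. Lipid droplet genes, named for the place of HSD17B11, had 15 measured members and medians of -0.07 and -0.10. TMT1A, a droplet-associated methyltransferase gene, differed by 0.18 and 0.64. Its dimmer probe sets were below the control with siRNA 1, at -0.39 and 0.43 in one and -0.02 and 0.37 in another.

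**Figure D3:**
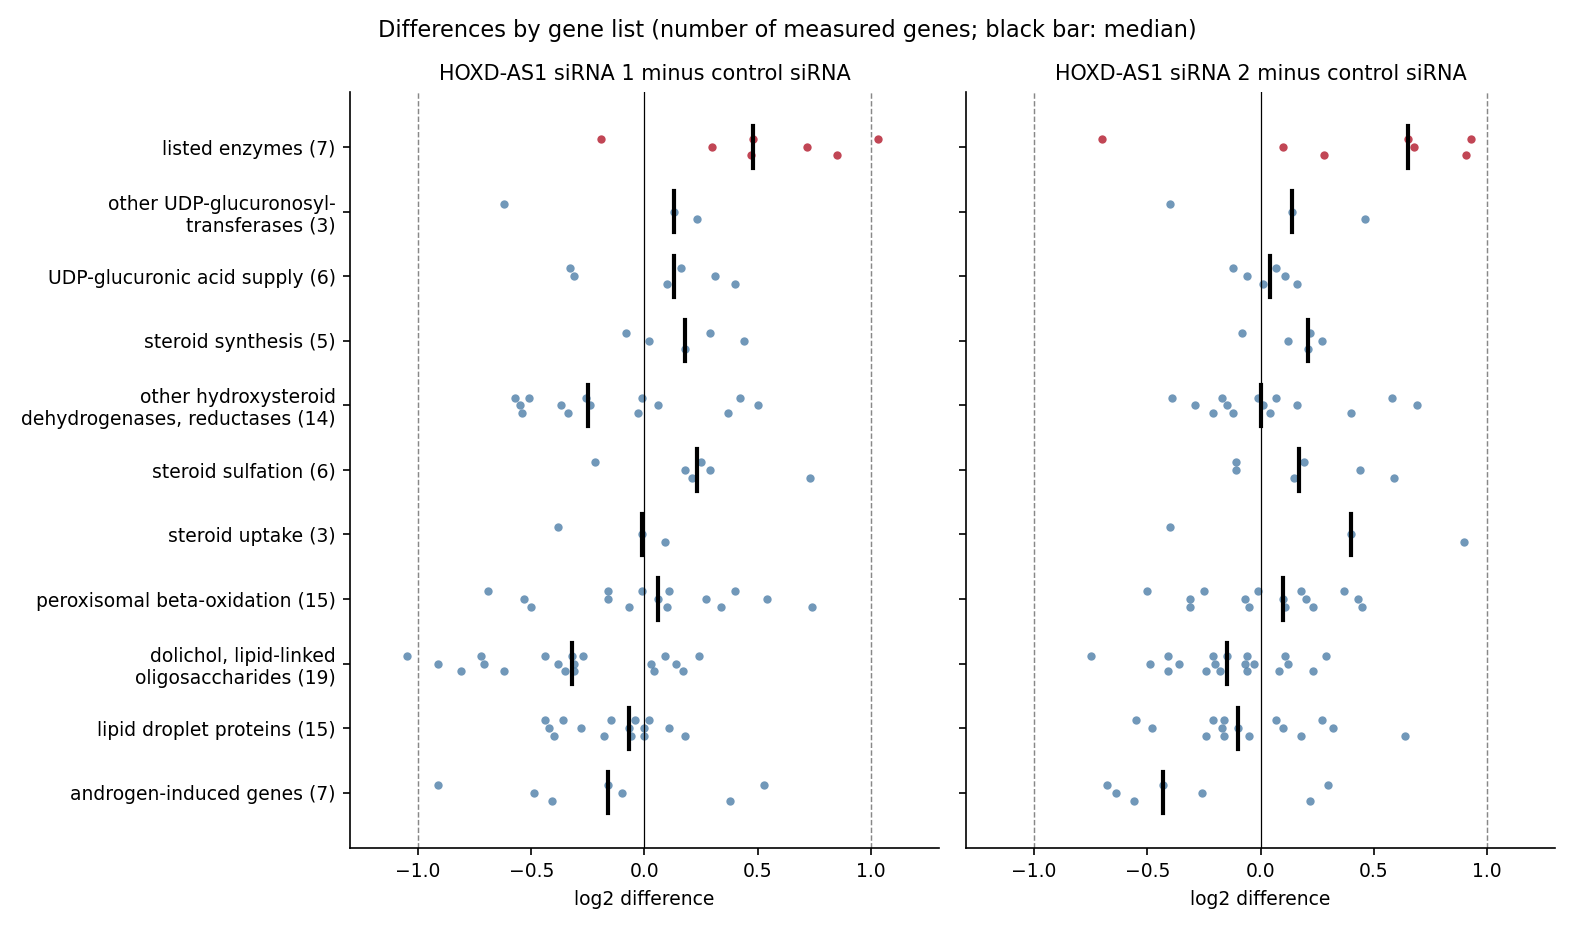
Log2 difference from the control siRNA of each measured gene (points) with HOXD-AS1 siRNA 1 (left) and siRNA 2 (right), by gene list, with the number of measured genes in brackets, black bars at the medians and dashed lines at 2-fold. The listed enzymes (red) have medians of 0.48 and 0.65, and the dolichol list has medians of -0.32 and -0.15.

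Androgen signalling was read from its output. Of 7 measured genes that androgen induces, 2 were higher with both siRNAs (34.3% of all measured genes) and 5 lower with both (32.1%), with medians of -0.16 and -0.43. The 2 higher genes were TMPRSS2, a membrane protease gene, at 0.53 and 0.30, and NDRG1, at 0.38 and 0.22. A dimmer TMPRSS2 probe set gave 0.27 and -0.19, and a dimmer NDRG1 probe set gave -0.10 and -0.26. The other measured probe sets of both genes were higher with both siRNAs. KLK2, a secreted prostate protease gene, read 4845 with siRNA 1 and 3230 with siRNA 2, against 5176 in the control (-0.10 and -0.68). Other KLK2 probe sets were as low as -1.27 with siRNA 2, and 1 was above the control with siRNA 1 (0.43). UGT2B15 and UGT2B17, which androgen lowers in these cells, were above the control on the same arrays. A link between these readings was not tested.

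The identity of the cells and the arrays was checked once. All 8 luminal prostate markers with a probe set were measured on these arrays. Of the defining markers of other cells, KRT5, CAV1, CD44, DCN, PTPRC and ALB were below the floor on every array. Measured were 1 of 2 basal markers, 1 of 4 of stroma and 0 of 3 of leukocytes. ALB bears on the UGT2B genes, since the liver is a main site of their expression, and read 10.4 with siRNA 1, 8.10 with siRNA 2 and 11.6 in the control. Of 5 hepatocyte markers only TTR was measured, at 57.1 and 37.5 against 60.1 in the control. HOXD-AS1 itself had 0 probe sets under its current symbol HAGLR, so its knockdown was not read from these data. In bulk RNA, fewer cells that express a gene and less RNA per cell cannot be told apart.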

How the data were processed

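Transcript levels were measured in LNCaP cells on 3 arrays, 1 for each siRNA and 1 for the control siRNA, with groups taken from the titles. The authors deposited 1 table with a linear intensity for each of 49388 probe sets on each array. GCOS 1.4 is the only tool named, per the submitters' processing notes. The background correction, the summarisation and any normalization between arrays are not given in the sources used here. If the arrays were set to one scale before deposit, a shift of most transcripts would not be seen.

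Intensities below the median of all values, 26, were raised to it and log2 was taken, with no rescaling, since the array medians were 25.7 to 26.1. A gene was represented by its brightest probe set by mean log2 intensity, taken from those that the platform annotation gives 1 symbol, and UGT2B17, which had none, by a probe set shared with UGT2B15. Differences are siRNA minus control. With 1 array per group there is no replicate error, no test was made, and precision is limited by the number of arrays. The spread between probe sets of one gene (pooled SD 0.215 with siRNA 1 and 0.200 with siRNA 2) stands in only as a measure of how far probe sets differ. Counting was run on simulated data with planted changes well past the 2-fold threshold in bright probe sets. This checks the code, and not calls on differences as small as those of the members. Python 3.11.15, pandas 2.3.3 and Biopython 1.88 were used, and promoters came from RefSeq.

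The members and the lists were chosen with earlier results of these data known. The text names every member, each gene of the other lists at 2-fold with either siRNA, and otherwise the gene of highest mean intensity in a list. AKR1C2, UGT2B10, HSDL2, MPDU1, ALG9, TMPRSS2, NDRG1, SLC51A, SHBG and the marker genes fall outside this rule and were named after their values were seen.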

Additional observations from a re-analysis of the deposited data

Results flagged for a closer look

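Among the listed enzymes and their shared probe sets, 3 values went opposite ways with the siRNAs, below the control with one and above it with the other, and with 1 array per group these differences were not tested. HSD17B11 read 218 with siRNA 1 and 109 with siRNA 2, against 178 in the control, a log2 difference of siRNA 2 minus siRNA 1 of -1.00. That reading rests on a probe set that ended in _s_at and may also match other transcripts. SRD5A1 differed by 0.47 in the same contrast, 127 with siRNA 1 and 175.5 with siRNA 2, against 145 in the control. The other measured SRD5A1 probe set differed by only 0.18 and was not above the control with either siRNA (-0.19 and -0.01). The probe set shared by UGT2B10 and UGT2B11 differed by 0.53, at 171 and 245.7 against 194 in the control.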

How the results depend on the processing

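At 2-fold, 1 member gene differed from the control with siRNA 1, 0 with siRNA 2, 0 with both and 0 between the siRNAs. These counts are small and moved with the settings. With the mean of the measured probe sets they were 0 with siRNA 1 and 1 with siRNA 2 (UGT2B17, shared with UGT2B15). With only plain _at probe sets, which left 2 genes, 1 differed with siRNA 2 and 1 with both. Arrays centred on their medians gave 1 between the siRNAs, HSD17B11. A 1.5-fold threshold gave 3 with siRNA 1, 5 with siRNA 2 in either direction, 3 with both and 1 between the siRNAs, and a 3-fold threshold 0 with siRNA 1. The siRNA 2 median of 0.65 became 0.28 when the floor was set at the 25th percentile or dropped, which brought UGT2B11 and STS in as measured genes. Of 116 recomputed values of single genes and shared probe sets, 115 kept their sign and 4 moved by more than the spread between probe sets. These were AKR1C3 at 0.00 and 0.05 with the floor at the 75th percentile, which lies above most of its readings, and UGT2B17 at 1.08 and 1.29 with only plain probe sets. Signal near background limits UGT2B28, UGT2B11 and STS. No paired analysis was possible because each group holds 1 array.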

Other observations

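HSDL2, a peroxisomal dehydrogenase-like gene of the hydroxysteroid list, was read differently by its probe sets. The one that stood for the gene, because its mean was the highest, read 395 with siRNA 1 and 605 with siRNA 2, against 404 in the control (-0.03 and 0.58). A further probe set read 462 and 516 against 245.1 in the control (0.91 and 1.07), and the last read 89.3 and 102 against 39.97 in the control (1.16 and 1.35). With either of these the gene would have joined those higher with both siRNAs.

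MPDU1, which is needed to use dolichol-linked mannose, was lower with both siRNAs in all of its measured probe sets, with log2 differences between -0.89 and -0.67 for siRNA 1 and between -0.74 and -0.41 for siRNA 2. The choice of MPDU1 and ALG9 was made with their values known. ALG9, a mannosyltransferase gene of the same pathway, differed by 0.17 with siRNA 1 and -0.75 with siRNA 2 in the probe set that stood for it, and by 0.15 and -0.79 in another, while its remaining measured probe sets differed by -0.33 and -0.07 and by -0.30 and -0.08.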
